A study of Homo sapiens with 35 samples.

Results

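The transcripts described here encode the enzymes and carriers that take glucose into the cell, break it down to pyruvate, turn pyruvate into lactate or pass it into the mitochondrion for oxidation. They comprised 34 named genes, chosen by symbol among the protein-coding entries of the count table, and the 34 were found among 19665 such entries. Every one had at least 1 count in the data, and 33 of 34 passed a filter on low counts (edgeR's filterByExpr). The exception was HK1. The cells were RPMI-8226, an established multiple myeloma line, given a pulse of the irreversible proteasome inhibitor carfilzomib at 750 nM for 1 h and followed through recovery. RNA was sequenced in 5 libraries collected before the pulse (day 0) and in 5 at each of days 1, 2, 4, 6, 8 and 10 after it, 35 in all. The study's methods name 5 subcultures for RNA sequencing, and which subculture each library came from is not given in the sources used here. The labels list the treatment for day 0 as well, while the study's methods place that collection ahead of the drug. The line is 1 culture that was expanded and then split, so that p-values measure the spread between libraries of that culture rather than between independent cell lines or donors. No untreated subcultures were followed in parallel in the data used here, so that time in culture and time after the pulse cannot be told apart. By the study's methods, cells were put in fresh medium ahead of the day 0 collection. From day 2 on they were collected just ahead of a medium change, and cell density was reset on days 6 and 8. The age of the medium and cell density thus varied with day and cannot be told apart from it either.

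Glycolysis splits glucose into pyruvate in the cytosol. Its upper steps spend ATP to trap glucose and cleave it into triose phosphates, and its lower steps regain ATP and deliver pyruvate. Lactate dehydrogenase then regenerates NAD+ by reducing pyruvate to lactate, which leaves through monocarboxylate transporters, whereas the mitochondrial pyruvate carrier and the pyruvate dehydrogenase complex send pyruvate into the citric acid cycle. Pyruvate dehydrogenase kinases switch the complex off and phosphatases switch it on again. Malignant plasma cells, like many cancer cells, are known for high glucose uptake and lactate production. In the culture supernatants of this line, however, the study measured net lactate consumption at baseline and release after the pulse. It also reports that glucose uptake fell after the pulse.

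The libraries held between 6519392 and 10962890 counts in all biotypes, and TMM factors lay between 0.929 and 1.08. Levels are given as CPM, the count scaled to the TMM-normalized protein-coding library size, and they compare libraries rather than genes, since they are not divided by transcript length. The myeloma markers fixed for this line were present in every library (SDC1 209.6 to 362 CPM, IRF4 292 to 574 CPM, XBP1 369.8 to 498 CPM). T cell, myeloid, erythroid and stromal markers stayed at or near 0, with summed levels of at most 5.17 CPM per list and library, whereas the epithelial markers EPCAM (43.97 to 95.7 CPM) and KRT8 (9.78 to 43.1 CPM) were measured and KRT19 (at most 0.162 CPM) was not. In bulk RNA, fewer cells of one state and less RNA per cell cannot be told apart.

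Taken as a share of protein-coding counts, the 34 transcripts held 0.965 to 1.11% in the libraries of day 0, 2.61 to 2.73% on day 1, 2.13 to 2.34% on day 2, 1.81 to 2.03% on day 4, 1.61 to 1.75% on day 6, 1.77 to 1.98% on day 8 and 1.40 to 1.53% on day 10. No library of a later day overlapped with day 0, and the share was highest on day 1. As a sum, this share follows mainly the most abundant transcripts. PKM, ENO1, GAPDH and ALDOA averaged 1853, 1717, 1552 and 1422 CPM on day 0 and 6987, 5282, 3212 and 3016 CPM on day 1. 

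Each recovery day was compared with day 0 to ask how transcripts of glucose handling were deregulated as the cells passed through stress and recovery. A transcript was called higher or lower at a Benjamini–Hochberg adjusted Q of at most 0.05 in edgeR's quasi-likelihood test across 17999 protein-coding entries. On day 1, 25 of the 34 transcripts were higher and 5 were lower, where 25.4% of all entries were higher and 27.3% lower. The median log2 fold change of the 34 was 0.66, against -0.06 for all entries. Among the 25, 12 were more than 2-fold higher (7.27% of all entries). These 12 were PFKP, ALDOA, TPI1, PFKFB4, GAPDH, PGK1, PGAM1, ENO1, PKM, LDHA, MPC2 and DLD. PFKFB2 was the only one of the 34 that was more than 2-fold lower on day 1 (13.2% of all entries).

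The medians of later days were smaller. On day 2, 26 transcripts were higher and 4 lower (background 23.2% and 24.4%), with a median log2 fold change of 0.48. On day 4 the counts were 25 and 3 (background 19% and 20.1%) and on day 6 they were 25 and 2 (17.5% and 17%), with medians of 0.46 and 0.40. The count lower on day 6 was 1 without replicate 2 or 5 of day 0 or without replicate 3 or 4 of day 6. Day 8 had 24 higher and 3 lower (18.2% and 18.6%) with a median of 0.43. By day 10, 20 were higher and 3 lower (16.1% and 15.8%), and the median had declined to 0.22. The share of all entries called also shrank over these days, and among entries that passed the filter on low counts the background was higher throughout, at 36.1% higher and 34.8% lower on day 1 and 23.1% and 21.6% on day 10.

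The fitted fold change peaked on day 1 in 13 of the 34 and on day 2 in 9, whereas HK2, SLC2A3 and PDK1 peaked on day 6 and GPI, ALDOC, PFKFB4 and PDK2 on day 8. The 8 transcripts that were lower on at least 1 day were SLC2A3, PFKL, PFKFB2, PFKFB3, ENO2, SLC16A1, PDK1 and PDP1. The comparisons of the 6 days share the libraries of day 0. The plot of fold changes by role shows these courses side by side.

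**Figure D1:**
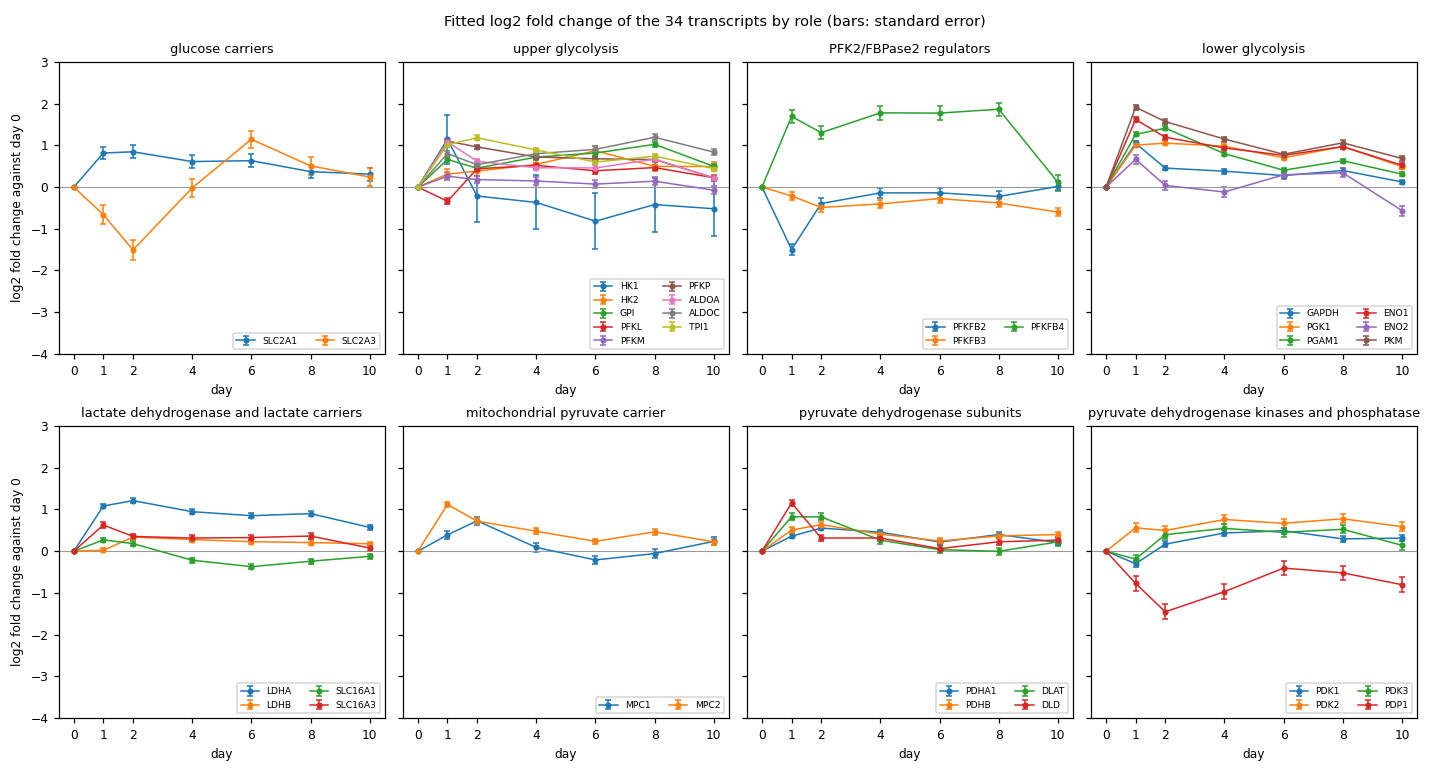
Fitted log2 fold change against day 0 (vertical axis) by day (horizontal axis) for the 34 transcripts in 8 panels by role, with bars for the standard error and day 0 set to 0. The lower pathway rises to between 0.67 and 1.92 on day 1 and each of its transcripts lies lower on day 10, PFKFB4 stays high up to day 8, and SLC2A3 and PDP1 are lowest on day 2.

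The 2 glucose carriers moved in opposite directions early after the pulse. SLC2A1 encodes GLUT1, the basal glucose transporter of many cell types (chr1:42925353-42958893; this and the positions given for other genes are those of GENCODE release 44 on GRCh38). Its level was 50.8, 58.9, 33.4, 55.7 and 53.3 CPM in the 5 libraries of day 0, 104, 88.9, 94.8, 83.4 and 72.5 CPM on day 1 and 89.3, 92.1, 86.4, 90.5 and 95.3 CPM on day 2. Both later days lay above all libraries of day 0, where replicate 3 was the lowest. The log2 fold change was 0.82 ± 0.15 (Q = 1.4e-05) on day 1 and 0.85 ± 0.15 (Q = 8.1e-06) on day 2, and the transcript remained higher on days 4 and 6 (0.61 and 0.63). On day 10 it was 71.8, 62.1, 57.98, 53.6 and 67.5 CPM, a difference of 0.31 ± 0.16 (Q = 0.14) that did not pass the threshold. About as many counts of this symbol lay outside its protein-coding entry as in it, with 48.8 to 66.7% of its counts in other biotypes on day 0, and the values above cover the protein-coding entry alone.

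SLC2A3 encodes GLUT3, a carrier with high affinity for glucose (chr12:7919230-8019007). It was at 13.4, 11.3, 15.01, 11.6 and 10.2 CPM on day 0 and at 5.02, 3.22, 4.17, 4.32 and 5.19 CPM on day 2. No library of day 2 reached the lowest of day 0, and the protein-coding entry of SLC2A3 fell by 1.51 on the log2 scale (SE 0.24, Q = 1.4e-06). On day 6 the order had turned, at 29.9, 32.2, 25.9, 23.9 and 24.4 CPM, each of them above day 0, with a log2 fold change of 1.15 ± 0.20 (Q = 1.5e-05). By day 10 the level was 12.8, 12.1, 17.1, 14.5 and 16.4 CPM, and the difference from day 0 of 0.24 did not pass (Q = 0.43). The log2 ratio of SLC2A3 to SLC2A1 within a library, which needs no scaling between libraries, ranged from -2.38 to -1.15 on day 0, from -3.87 to -3.13 on day 1 and from -4.82 to -4.13 on day 2. On average, 11.04% of the counts of SLC2A3 lay outside its protein-coding entry on day 0 (SD 9.18) and 29.63% on day 2 (SD 14.62). The levels and the ratio cover the protein-coding entries alone, and the change of all entries of the symbol together was not tested.

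Day 8 was uneven for both carriers. SLC2A1 was at 67.6, 92.7, 39.7, 40.3 and 86.4 CPM in replicates 1 to 5 and SLC2A3 at 16.2, 31.2, 10.1, 8.88 and 20.9 CPM, with replicates 3 and 4 the lowest in both. With 5 libraries, neither carrier passed the threshold on day 8 (SLC2A1 0.37 ± 0.16 (Q = 0.059), SLC2A3 0.51 ± 0.21 (Q = 0.055)). Without replicates 3 and 4, both did, at 0.73 (Q = 7.6e-06) and 0.92 (Q = 7.7e-05), in a comparison added after the values had been seen. Leaving out replicate 3 or replicate 4 alone also brought SLC2A1 past the threshold, at 0.51 and 0.52, and SLC2A3 at 0.66 and 0.70, as did leaving out replicate 2 or replicate 4 of day 0 for SLC2A1 (0.45 and 0.42) and replicate 3 of day 0 for SLC2A3 (0.59).

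**Figure D2:**
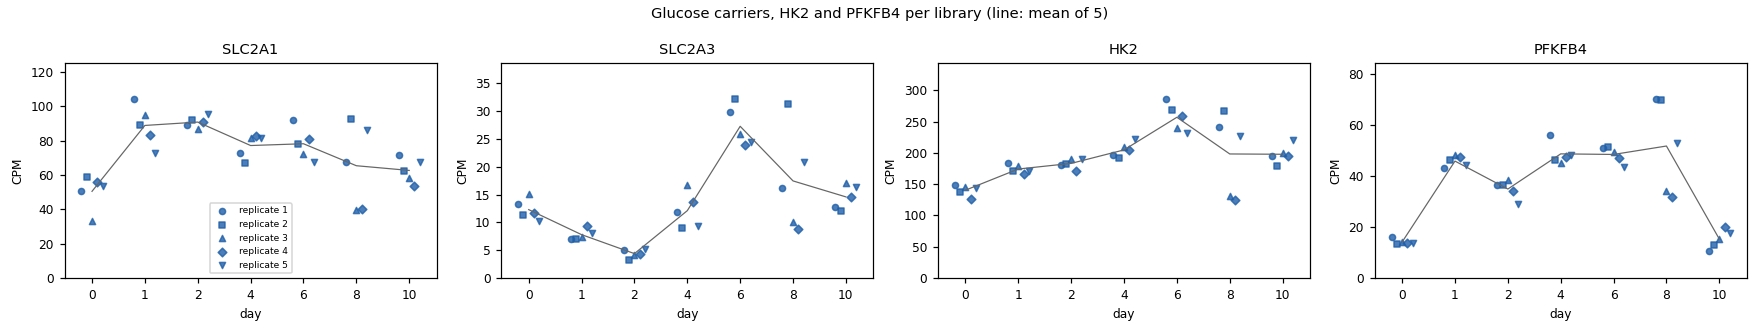
CPM (vertical axis, from 0) by day (horizontal axis) of SLC2A1, SLC2A3, HK2 and PFKFB4, with 1 point per library, a marker shape for each replicate number and a line through the mean of 5. SLC2A3 is lowest on day 2 and highest on day 6, and on day 8 replicates 3 and 4 lie below the other libraries in each panel.

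The same 2 libraries of day 8 stood low in other transcripts. Replicates 3 and 4 both lay below the other libraries of day 8 in 13 of the 33 transcripts that passed the filter (39.4%), and both lay above in 5 (15.2%), while 9.77% and 10.8% of all 12301 filtered entries did so. The 13 were SLC2A1, SLC2A3, HK2, PFKL, PFKP, ALDOA, PFKFB3, PFKFB4, ENO1, ENO2, LDHA, SLC16A3 and PDK1. Among 18 known targets of the hypoxia-inducible factors listed outside the 34, both libraries lay below in 12 and above in 0. The 2 libraries were singled out after the values had been seen, and the 13 include both carriers in which they stood lowest. The share of 39.4% is thus no separate test. Nor is the count of 12 among the 18 targets, a list chosen with earlier results of these data known. What set these 2 libraries apart was not tested. Without these 2 libraries the count of the 34 that was lower on day 8 changed from 3 to 1.

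In the upper pathway 7 of 9 transcripts were higher than day 0 on any given recovery day, namely HK2, GPI, PFKP, ALDOA, ALDOC and TPI1, together with PFKM on day 1 and PFKL on later days. Over all 9, the median log2 fold changes were 0.80, 0.45, 0.54, 0.60, 0.66 and 0.22 on days 1, 2, 4, 6, 8 and 10. TPI1, triosephosphate isomerase, which interconverts the products of aldolase (chr12:6867119-6870948), was at 289.6, 309, 263, 311 and 311 CPM on day 0, 719, 726, 644, 609 and 668 CPM on day 2 and 364, 409, 411, 413 and 418 CPM on day 10. The libraries of day 2 all lay well above the highest of day 0, and those of day 10 remained above it. Its log2 fold change was 1.18 ± 0.06 (Q = 1.5e-21) on day 2 and 0.44 ± 0.06 (Q = 1.7e-08) on day 10.

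ALDOC, the aldolase isozyme best known from brain (chr17:28573115-28576948), followed a later course. It was at 93.5, 86.97, 78.1, 89.6 and 89.9 CPM on day 0, 172, 216, 189.8, 211 and 215 CPM on day 8 and 155, 171, 155, 155 and 147 CPM on day 10, without overlap between day 0 and either later day. On the log2 scale it had risen by 1.19 ± 0.07 (Q = 2.3e-17) on day 8 and was 0.84 ± 0.07 (Q = 1.8e-12) on day 10. The ubiquitous isozyme ALDOA changed by 1.08 ± 0.06 (Q = 9.9e-19) on day 1 and by 0.21 ± 0.06 (Q = 0.0057) on day 10. Within libraries, the log2 ratio of ALDOC to ALDOA ranged from -4.12 to -3.93 on day 0, from -4.42 to -4.20 on day 1 and from -3.49 to -3.37 on day 10, so that it shifted by -0.28 and later by 0.62 (exact two-sided permutation test, 5 against 5 libraries, p = 0.00794 each, the smallest the test can give, adjusted p = 0.013 over 36 tests).

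Hexokinase traps glucose as glucose 6-phosphate. HK2, the inducible isozyme, was at 149, 137, 145, 127 and 144 CPM on day 0 and 286, 268, 241, 259 and 231 CPM on day 6, with all libraries of day 6 above day 0 and a log2 fold change of 0.87 ± 0.12 (Q = 6.7e-08). On day 8 HK2 was called higher too, but its libraries overlapped with day 0. Replicates 3 and 4 of day 8 were at 132 and 125 CPM. HK1, the isozyme of most tissues, had between 0 and 21 counts per library in its protein-coding entry and passed on no day in the fit of all libraries, with a difference of 1.15 ± 0.58 (Q = 0.098) on day 1. GPI, which turns glucose 6-phosphate into fructose 6-phosphate, rose most on day 8 (1.02 ± 0.06 (Q = 1.6e-17)).

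The phosphofructokinase subunits, which form the first committed step, diverged on day 1. PFKL, the liver-type subunit, was at 192, 208, 183, 195 and 199 CPM on day 0, 152, 164, 142, 156 and 157 CPM on day 1 and 288, 297, 246, 231 and 261 CPM on day 2. It fell below all day 0 libraries on day 1 and rose above them on day 2, with log2 fold changes of -0.34 ± 0.07 (Q = 3.9e-05) and 0.44 ± 0.07 (Q = 3.7e-07). PFKP, the platelet-type subunit, was at 143, 125, 128, 124 and 131 CPM on day 0 and at 280.3, 288, 256, 285 and 290.5 CPM on day 1, a log2 fold change of 1.10 ± 0.05 (Q = 3.9e-21) without overlap. The log2 ratio of PFKP to PFKL thus rose by 1.44 on day 1 and 0.53 on day 2 (exact permutation p = 0.00794, adjusted p = 0.013 for each), and its difference on day 10 was 0.0021 (exact permutation p = 0.976). PFKM, the muscle-type subunit, was higher on day 1 (0.26 ± 0.09 (Q = 0.018)) and did not pass on any later day with all libraries. The call on day 1 was lost without replicate 3 of day 0 (0.20) or replicate 5 of day 1 (0.22), and on day 8 it passed without replicate 1 of that day (0.23).

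The bifunctional PFK2/FBPase2 enzymes set the level of fructose 2,6-bisphosphate, the strongest activator of phosphofructokinase. PFKFB4 (chr3:48517684-48562015) was at 15.9, 13.2, 13.9, 13.8 and 13.7 CPM on day 0, 43.1, 46.1, 48.3, 47.3 and 44.3 CPM on day 1, 70.2, 69.7, 33.96, 31.7 and 53.1 CPM on day 8 and 10.7, 12.9, 15.3, 19.9 and 17.5 CPM on day 10. Every library of days 1 and 8 lay above day 0, whereas day 10 overlapped with it. Its log2 fold change was 1.69 ± 0.16 (Q = 5e-12) on day 1, stayed between 1.30 and 1.87 on days 2 to 8, and was 0.11 ± 0.18 (Q = 0.71) on day 10. Against day 2 it had declined by day 10, at -1.19 ± 0.16 (Q = 5.2e-08).

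PFKFB2 and PFKFB3 went the other way. PFKFB2 was at 16.7, 14.4, 16.4, 15.8 and 18.5 CPM on day 0, 5.44, 4.88, 5.59, 4.29 and 8.79 CPM on day 1 and 11.6, 12.98, 12.5, 12.6 and 12.4 CPM on day 2, with each library of both days below day 0. Fitted log2 fold changes were -1.50 ± 0.14 (Q = 1.3e-12) on day 1 and -0.39 ± 0.12 (Q = 0.0063) on day 2, and no later day passed the threshold. PFKFB3, the isozyme with the strongest kinase activity, was lower on days 2 to 10, from -0.28 ± 0.10 (Q = 0.028) on day 6 to -0.60 ± 0.10 (Q = 8.2e-06) on day 10. The call on day 6 was lost without replicate 2 or 5 of day 0 or without replicate 3, 4 or 5 of day 6, at -0.27 to -0.21. That on day 8 was lost without replicates 3 and 4 of day 8 together (-0.16). On day 1 (-0.21 ± 0.10 (Q = 0.075)) it passed only without replicate 4 of day 0 (-0.26) or replicate 3 of day 1 (-0.25) among the single libraries left out. The within-library log2 ratio of PFKFB4 to PFKFB3 was -2.49 to -2.08 on day 0 and -0.49 to -0.19 on day 1.

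The lower pathway regains ATP and ends in pyruvate. Its 6 transcripts were all higher on day 1, with medians of 1.16, 1.12, 0.87, 0.55, 0.80 and 0.40 on days 1, 2, 4, 6, 8 and 10, and on day 10, 4 were still higher and ENO2 was lower. PKM encodes pyruvate kinase, which makes pyruvate and ATP in the last step (chr15:72199029-72231819). It was at 1836, 1855, 1635, 1984 and 1953 CPM on day 0, 6728, 7018, 7129.9, 7159 and 6898 CPM on day 1, 5852, 5969, 5402, 4935 and 5355 CPM on day 2 and 2761, 3052, 2922, 3081 and 3085 CPM on day 10. Each library of the 3 later days exceeded every library of day 0, and day 1 was the highest. The log2 fold change was 1.92 ± 0.06 (Q = 1.6e-27) on day 1, the largest among the 34 on any day, and 0.69 ± 0.06 (Q = 9.8e-13) on day 10. The table does not separate the M1 and M2 splice forms.

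ENO1, the enolase of most cells, which forms phosphoenolpyruvate (chr1:8861000-8879190), was at 1711, 1719, 1509.9, 1813 and 1831 CPM on day 0, 5010.0, 5347, 5292, 5535 and 5228 CPM on day 1 and 2289, 2539.7, 2387, 2547 and 2575 CPM on day 10. Day 1 and day 10 both lay entirely above day 0, at 1.62 ± 0.06 (Q = 8.6e-26) and 0.52 ± 0.06 (Q = 4.4e-10) on the log2 scale. ENO2, the neuronal isozyme, was at 28.7, 28.1, 38.3, 21.6 and 21.2 CPM on day 0, 48.2, 45.8, 43.01, 39.4 and 43.1 CPM on day 1 and 18.8, 19.3, 17.6, 19.1 and 18.8 CPM on day 10. Its libraries lay above day 0 on day 1 and below it on day 10 (0.67 ± 0.11 (Q = 1.5e-06) and -0.56 ± 0.12 (Q = 0.00019)). The log2 ratio of ENO2 to ENO1 was lower on days 1, 2 and 10 by 0.92, 1.12 and 1.05 (exact permutation p = 0.00794, adjusted p = 0.013 for each).

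GAPDH, glyceraldehyde 3-phosphate dehydrogenase and a transcript often taken as a reference in PCR (chr12:6534512-6538374), was at 1563, 1594, 1410.2, 1646 and 1549 CPM on day 0, 3093, 3227, 3263, 3343 and 3133 CPM on day 1 and 1629, 1769, 1658, 1766 and 1633 CPM on day 10. No library of day 1 was below 3093 CPM, while day 10 overlapped with day 0. GAPDH thus differed from day 0 by 1.05 ± 0.06 (Q = 1.4e-19) on the log2 scale on day 1 and 0.12 ± 0.06 (Q = 0.095) on day 10. Without replicate 4 of day 0, the day 10 difference passed the threshold at 0.16. Its 8 pseudogene entries held at most 0.0761% of the counts on day 0. PGK1, phosphoglycerate kinase, and PGAM1, phosphoglycerate mutase, the intervening enzymes, peaked on day 2 at 1.05 ± 0.05 (Q = 2.2e-20) and 1.41 ± 0.05 (Q = 2.2e-25).

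**Figure D3:**
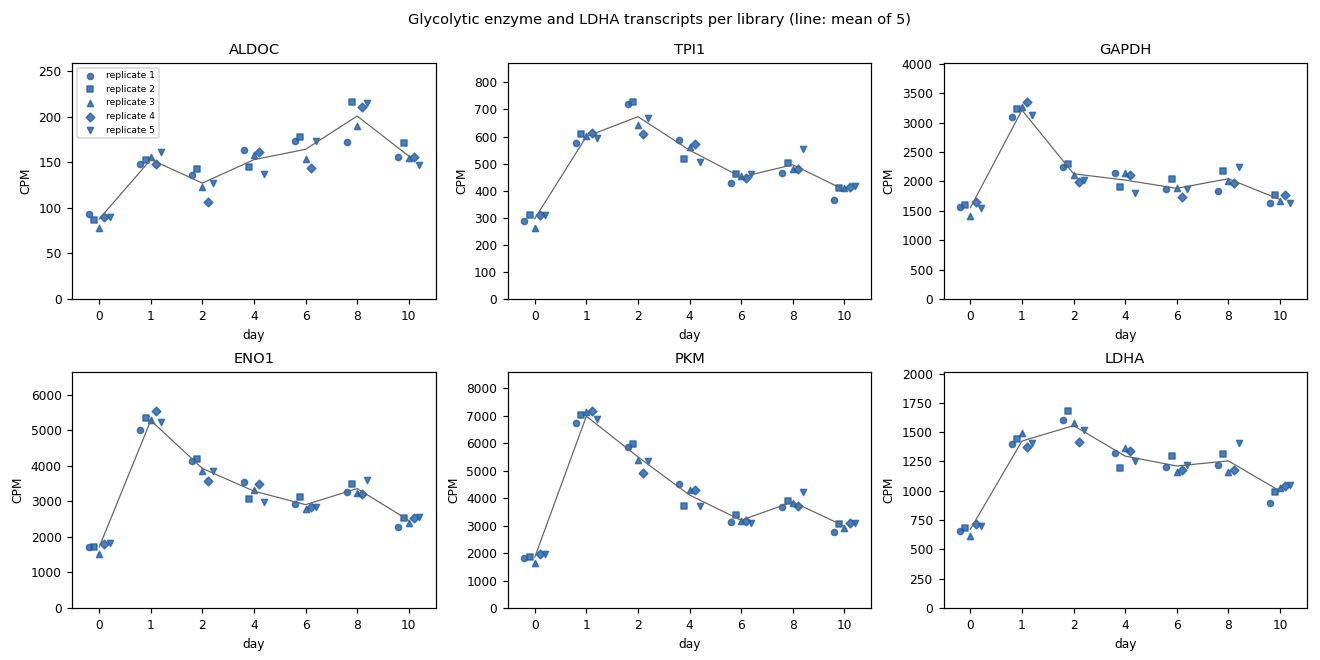
CPM (vertical axis, from 0) by day (horizontal axis) of ALDOC, TPI1, GAPDH, ENO1, PKM and LDHA, with 1 point per library, a marker shape per replicate number and a line through the mean of 5. PKM, ENO1 and GAPDH are highest on day 1, TPI1 and LDHA on day 2 and ALDOC on day 8, and on day 10 GAPDH overlaps with day 0.

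The promoters of the 34 were examined for the letters of known binding motifs. A window from 250 bases before to 50 after an annotated start was held for 30 of the 34 in RefSeq (GRCh38.p14). PFKFB2, SLC16A1, SLC2A3 and PDP1 had no entry. A gene can have several starts, and the window used need not be that of its outermost start. The windows of GAPDH, ENO1 and PKM lie within the gene positions given above, so their motif counts describe an internal start. The hypoxia response element, bound by the hypoxia-inducible factors, has ACGTG or GCGTG at its core. ACGTG stood on either strand in 11 of 30 windows (36.7%), against 21.4% of 35116 windows of the same length, and GCGTG in 17 (56.7%), against 36.5%. CACGTG, the E-box of MYC and other factors, which contains ACGTG, stood in 4 (13.3%, against 7.26%). TGACNNNGC, the antioxidant response element, stood in 5 (16.7%, against 13.3%), and TGATGNAA, an ATF4 element, in 1 (3.33%, against 3.62%). Members of the lower pathway and its lactate branch shown library by library included ENO2 and SLC16A3, whose windows are not printed. Those of GAPDH, ENO1, PKM and LDHA are printed 5′ to 3′ on the strand of the gene. ACGTG and its reverse complement CACGT are in capitals.
GAPDH promoter, chr12:6535014-6535313, plus strand: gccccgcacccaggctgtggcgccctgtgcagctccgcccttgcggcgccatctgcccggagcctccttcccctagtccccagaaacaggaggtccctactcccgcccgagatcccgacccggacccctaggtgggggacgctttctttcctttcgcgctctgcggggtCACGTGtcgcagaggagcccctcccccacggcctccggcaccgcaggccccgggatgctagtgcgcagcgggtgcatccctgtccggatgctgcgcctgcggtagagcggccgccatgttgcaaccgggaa
ENO1 promoter, chr1:8878637-8878936, minus strand: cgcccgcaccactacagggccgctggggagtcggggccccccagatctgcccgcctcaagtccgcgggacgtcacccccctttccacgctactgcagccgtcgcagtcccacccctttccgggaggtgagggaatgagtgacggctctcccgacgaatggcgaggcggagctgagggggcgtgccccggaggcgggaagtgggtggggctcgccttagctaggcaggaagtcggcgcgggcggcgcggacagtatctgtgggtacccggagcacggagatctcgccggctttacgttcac
PKM promoter, chr15:72231141-72231440, minus strand: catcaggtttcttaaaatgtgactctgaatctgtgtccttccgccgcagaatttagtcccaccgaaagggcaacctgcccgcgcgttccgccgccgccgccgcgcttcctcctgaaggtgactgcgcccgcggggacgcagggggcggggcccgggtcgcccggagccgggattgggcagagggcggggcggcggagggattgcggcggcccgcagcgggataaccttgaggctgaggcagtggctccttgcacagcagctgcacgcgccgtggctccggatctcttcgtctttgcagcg
LDHA promoter, chr11:18394313-18394612, plus strand: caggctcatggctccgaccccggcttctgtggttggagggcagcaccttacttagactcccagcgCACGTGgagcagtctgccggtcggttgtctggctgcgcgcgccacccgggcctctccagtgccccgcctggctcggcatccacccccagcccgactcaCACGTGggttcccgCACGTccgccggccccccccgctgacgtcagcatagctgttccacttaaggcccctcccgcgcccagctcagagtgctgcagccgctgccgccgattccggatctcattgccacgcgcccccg
Counted on both strands, so that CACGTG counts as 2, ACGTG occurred 2 times in the window of GAPDH, 5 times in that of LDHA and 0 times in those of ENO1 and PKM. GCGTG occurred 2 times in the window of ENO1, 1 time each in those of PKM and LDHA and 0 times in that of GAPDH. A match describes the letters of the window and is no measure of binding.

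At the branch to lactate, LDHA encodes the subunit that favours lactate formation (chr11:18394560-18408425). It was at 657, 679, 613, 714 and 697 CPM on day 0, 1600.5, 1676, 1574, 1412 and 1517 CPM on day 2 and 898, 986, 1019.9, 1038 and 1045 CPM on day 10. All libraries of both later days lay above day 0, with log2 fold changes of 1.21 ± 0.06 (Q = 7.8e-22) and 0.57 ± 0.06 (Q = 3.3e-11). LDHB, the subunit common in heart, changed by 0.02 ± 0.05 (Q = 0.77) on day 1, which did not pass, and by 0.34 ± 0.05 (Q = 4.1e-07) on day 2. The log2 ratio of LDHA to LDHB rose from 0.33 to 0.47 on day 0 to 1.37 to 1.56 on day 1 and was 0.71 to 0.86 on day 10, shifts of 1.06 and 0.39 (exact permutation p = 0.00794, adjusted p = 0.013 for both).

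The lactate carriers differed in their course. SLC16A3 encodes MCT4, a lactate exporter of glycolytic cells (chr17:82217934-82261129). It was at 124, 119, 109.6, 105 and 121 CPM on day 0 and at 176, 188, 166, 181 and 183 CPM on day 1, without overlap, and its log2 fold change was 0.63 ± 0.07 (Q = 1.4e-10). It remained higher up to day 8 and was 0.07 ± 0.07 (Q = 0.45) on day 10. SLC16A1, which encodes the bidirectional carrier MCT1, was higher on day 1 (0.27 ± 0.06 (Q = 6.6e-05)) and lower on days 4, 6 and 8 (-0.22, -0.37 and -0.24). The ratio of SLC16A3 to SLC16A1 was higher on day 1 by 0.36 on the log2 scale (exact permutation p = 0.00794, adjusted p = 0.013), and its shifts of 0.17 on day 2 and 0.21 on day 10 did not pass (adjusted p = 0.106 and 0.0879, exact permutation test).

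**Figure D4:**
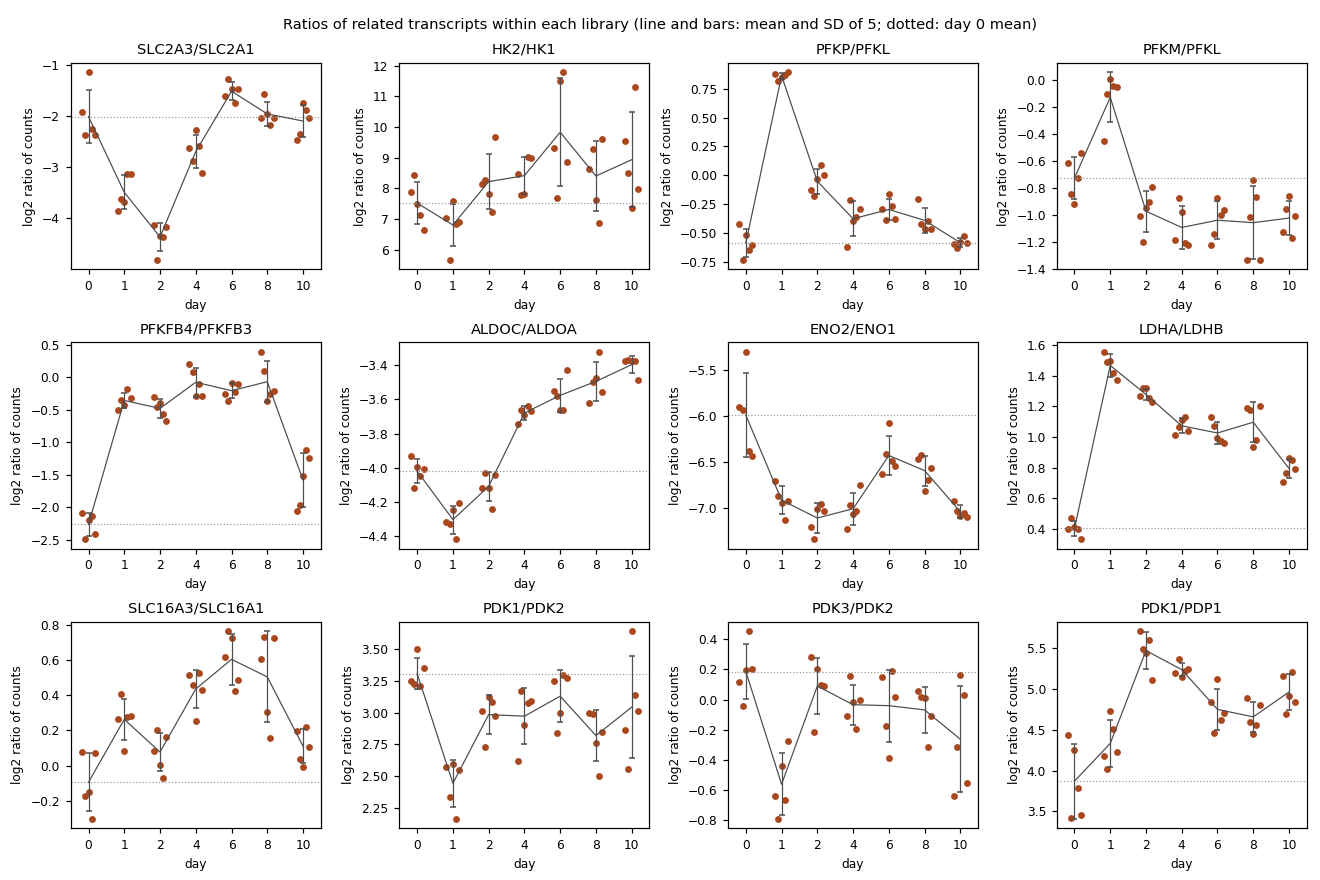
Log2 ratio of the counts of 2 related transcripts within each library (vertical axis) by day (horizontal axis) for 12 pairs, with 1 point per library, lines and bars for the mean and SD of 5 and a dotted line at the day 0 mean. LDHA/LDHB and PFKP/PFKL are highest on day 1, SLC2A3/SLC2A1 is lowest on day 2, and ALDOC/ALDOA is highest on day 10.

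Over the 12 pairs and 3 days tested, 23 of 36 ratios differed from day 0 at an adjusted p of at most 0.05. By construction, 5 libraries against 5 cannot give an exact p below 0.00794. HK2 to HK1 did not pass on any of the 3 days, with the few HK1 counts behind it. PFKM to PFKL rose by 0.60 on day 1 (exact permutation p = 0.00794, adjusted p = 0.013). On day 10 it was lower by 0.30 (exact permutation p = 0.0159, adjusted p = 0.0248), which did not pass without replicate 5 of day 0 or replicate 4 of day 10. On average, 27.3% of the counts of PFKM lay outside its protein-coding entry on day 0 and 40.5% on day 10. For PFKL these shares were 28.8% and 26.1%, and the ratio covers the protein-coding entries alone. PFKFB4 to PFKFB3 was still higher on day 10, by 0.68 (exact permutation p = 0.00794, adjusted p = 0.013), although without replicate 2, 3 or 5 of day 0 the shifts of 0.62, 0.70 and 0.64 no longer passed.

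Entry of pyruvate into the mitochondrion depends on a carrier of 2 subunits. MPC2 (chr1:167916675-167937072) was at 42.5, 46.98, 43.97, 49.3 and 51.01 CPM on day 0, 92.6, 100.1, 105, 104 and 105 CPM on day 1 and 51.2, 50.3, 56.04, 60.2 and 54.7 CPM on day 10. The day 1 libraries were all far above day 0, whereas day 10 overlapped with it, and the log2 fold changes were 1.12 ± 0.07 (Q = 2.2e-18) and 0.22 ± 0.07 (Q = 0.0092). Its partner MPC1 was at 45.00, 36.7, 37.7, 46.1 and 36.6 CPM on day 0 and 62.9, 70.8, 65.7, 64.5 and 71.1 CPM on day 2, all above day 0, and rose most on day 2 (0.73 ± 0.10 (Q = 2.2e-08)). After day 2, MPC1 did not pass the threshold with all libraries, but it was past it on day 6 without replicate 5 of that day (-0.29) and on day 10 without replicate 1 or 4 of day 0 or replicate 5 of day 10 (0.28 to 0.30).

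The pyruvate dehydrogenase complex converts pyruvate to acetyl-CoA. Its 4 transcripts here were higher on days 1, 2, 4 and 10, and 2 and 3 of them on days 6 and 8. DLD, the E3 subunit shared with other dehydrogenase complexes (chr7:107891162-107931730), was at 117, 115, 111, 134 and 134 CPM on day 0, 259.8, 252, 299, 270.3 and 279 CPM on day 1 and 158, 156, 133, 152 and 161 CPM on day 2. The rise on day 1 left no overlap with day 0 and had largely receded on day 2, when replicate 3 lay within the range of day 0. The log2 fold change was 1.16 ± 0.08 (Q = 1.9e-16) on day 1 and 0.32 ± 0.08 (Q = 0.00086) on day 2, a fall between the days of 0.84 (Q = 2.5e-12). The smaller difference on day 8 (0.23 ± 0.08 (Q = 0.023)) did not pass without replicate 3 of day 0 (0.19) or replicate 3 of day 8 (0.20).

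DLAT, the E2 acetyltransferase (chr11:112025408-112064404), held its rise for a day longer. It was at 59.2, 67.6, 58.3, 76.4 and 72.2 CPM on day 0, 104, 115, 131, 127 and 113 CPM on day 1, 119, 117, 117, 114 and 121 CPM on day 2 and 63.4, 64.6, 60.97, 80.0 and 71.8 CPM on day 6. Days 1 and 2 were clear of day 0, and day 6 overlapped with it. Log2 fold changes were 0.82 ± 0.09 (Q = 5.6e-11) on day 1, 0.82 ± 0.09 (Q = 6e-11) on day 2 and 0.04 ± 0.09 (Q = 0.83) on day 6. The differences on day 4 (0.26 ± 0.09 (Q = 0.014)) and day 10 (0.22 ± 0.09 (Q = 0.048)) depended on single libraries. Without replicate 3 of day 0 the former was 0.22, and without replicate 1 or 3 of day 0, or replicate 2, 3, 4 or 5 of day 10, the latter lay between 0.18 and 0.24, in each case short of the threshold. PDHA1 and PDHB, the subunits of the E1 decarboxylase, rose on every day, most on day 2 (0.55 ± 0.05 (Q = 2.2e-12) and 0.64 ± 0.07 (Q = 5.3e-11)).

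Of the kinases that inactivate the complex, PDK2 was the one that rose from day 1 (chr17:50094737-50112152). It was at 17.02, 17.1, 14.5, 15.6 and 13.7 CPM on day 0, 22.1, 25.3, 21.8, 25.6 and 20.6 CPM on day 1 and 25.5, 27.1, 25.2, 30.0 and 26.05 CPM on day 8, with all libraries of both days above day 0. The log2 fold change was 0.56 ± 0.11 (Q = 2.2e-05) on day 1 and 0.78 ± 0.11 (Q = 8.3e-08) on day 8. PDK1, known as a hypoxia-induced kinase, was at 162, 161, 165, 145 and 141 CPM on day 0 and 132, 128, 132, 115 and 121 CPM on day 1, each below day 0, and its log2 fold change went from -0.30 ± 0.07 (Q = 0.00061) on day 1 to 0.49 ± 0.07 (Q = 4.6e-07) on day 6. PDK3 did not pass on day 1 (-0.19 ± 0.11 (Q = 0.14)) and was higher on days 2 to 8, most on day 4 (0.55 ± 0.10 (Q = 2e-05)). Relative to PDK2, PDK1 was lower on day 1 by 0.86 and PDK3 by 0.75 on the log2 scale (exact permutation p = 0.00794, adjusted p = 0.013 for both).

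PDP1, the phosphatase that reactivates the complex, was at 7.45, 14.9, 8.58, 10.4 and 12.7 CPM on day 0, 3.16, 3.75, 4.17, 3.55 and 5.03 CPM on day 2 and 4.92, 6.39, 7.11, 5.196 and 7.22 CPM on day 10. The libraries of day 2 and of day 10 lay below the lowest of day 0, with log2 fold changes of -1.45 ± 0.18 (Q = 6.8e-09) and -0.80 ± 0.18 (Q = 0.00034). It was also lower on days 1 and 4 (-0.77 and -0.97). On day 8 (-0.52 ± 0.17 (Q = 0.015)) the call was lost without replicate 2 or replicate 5 of day 0 (-0.35 and -0.44) and without replicates 3 and 4 of day 8 together (-0.50). The log2 ratio of PDK1 to PDP1 was higher by 1.59 on day 2 and by 1.09 on day 10 (exact permutation p = 0.00794, adjusted p = 0.013 for both).

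Comparing the days of recovery with each other separated early from late changes. From day 1 to day 2, 9 of the 34 rose and 15 fell (background 20.2% and 19.4%), with a median log2 change of -0.08. Among those past the threshold, PFKFB2 (1.10) and PFKL (0.78) rose most, and SLC2A3 and DLD (-0.84 and -0.84) fell most. From day 2 to day 10, 4 rose and 23 fell (16.5% and 18.8%), with a median of -0.31. Again among those past the threshold, the largest rise was that of SLC2A3 (1.75 ± 0.24 (Q = 8.2e-08)), and the largest falls were those of PFKFB4 (-1.19) and PGAM1 (-1.10). These comparisons share the libraries of day 2.

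The count table keeps transcripts annotated with a retained intron as a separate entry of each symbol, and 26 of the 34 had one. With library sizes from the protein-coding fit, 3 of 26 such entries were higher and 3 lower than day 0 on day 1, where 2.78% and 21% of all 8883 entries of this kind were, and their median log2 fold change was 0.05 against -0.59 for all. Each of the 26 entries was tested on all 6 days, and 14 of these tests were called higher and 18 lower. Of the 53298 tests of all entries of this kind on the 6 days, 2.64% and 14.4% were. Scaled instead by their own TMM factors, 31 tests of the 26 entries were called higher and 9 lower (7.55% and 7.51% of all 53298). The balance of directions thus depends on the scaling. SLC16A3 was lower under both scalings on each of the 6 days, at -1.66 on day 1 with protein-coding library sizes and -1.09 with its own class's factors. GPI was not lower under either, and higher on each of the 6 days with the latter.

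The share of a symbol's counts that falls in its retained-intron entry needs no scaling between libraries. For SLC16A3 this share was 11.3, 14.6, 14.98, 14.7 and 13.5% in the libraries of day 0, 3.86, 3.23, 3.16, 2.22 and 3.304% on day 1 and 7.82, 5.74, 6.501, 8.15 and 5.51% on day 10. Neither later day overlapped with day 0. For LDHA it was 5.91, 5.86, 5.89, 3.77 and 5.17% on day 0 and 1.51, 1.43, 1.51, 0.724 and 1.14% on day 1, and for ENO1 3.56, 3.03, 4.07, 2.57 and 3.68% and 1.36, 0.936, 0.901, 1.06 and 1.26%. In both transcripts each library of day 1 lay below all of day 0. For PKM the shares of day 0 (8.79, 8.901, 11.1, 5.81 and 9.03%) and day 1 (5.98, 4.01, 4.302, 3.27 and 6.32%) overlapped. These shares are given as a description, since the protein-coding part of the sum rose on day 1 in each of the 4. Not every share fell, and that of PFKM averaged 26.0% on day 0 and 39.0% on day 10.

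**Figure D5:**
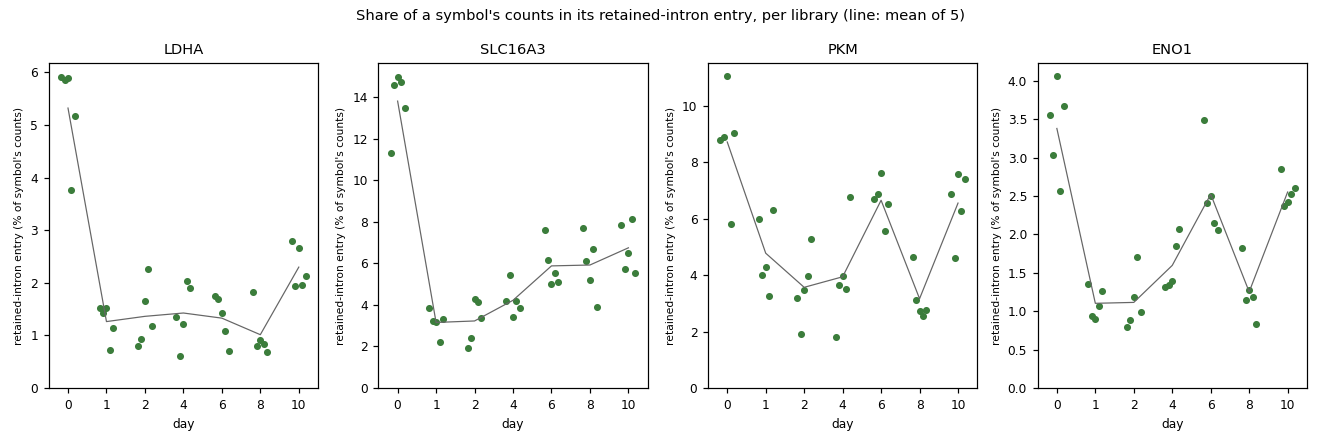
Share in percent of the counts of LDHA, SLC16A3, PKM and ENO1 that fell in the retained-intron entry of the symbol (vertical axis, from 0) by day (horizontal axis), with 1 point per library and a line through the mean of 5. On day 1 the shares of LDHA, SLC16A3 and ENO1 lie below every library of day 0.

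Outside the 34, a list of 43 further isozymes and neighbours of the pathway had 41 entries with a count. Of these, 13 were higher and 10 lower on day 1 (25.4% and 27.3% of all entries), 14 and 8 on day 2 (23.2% and 24.4%), and 9 and 6 on day 10 (16.1% and 15.8%), with medians of 0, 0.14 and 0 on the log2 scale. TIGAR, a phosphatase that lowers fructose 2,6-bisphosphate, was at 75.5, 84.4, 82.8, 87.8 and 89.7 CPM on day 0, 10.9, 10.5, 12.3, 11.6 and 9.596 CPM on day 2 and 5.500, 1.52, 3.77, 3.96 and 5.74 CPM on day 6. It lay far below day 0 in every one of these libraries and its log2 fold change was -2.93 ± 0.15 (Q = 4.2e-20) on day 2 and -4.33 ± 0.17 (Q = 5.8e-23) on day 6. PCK2, the mitochondrial phosphoenolpyruvate carboxykinase and a known ATF4 target, was at 164, 138, 131, 149 and 142 CPM on day 0, 14.99, 18.4, 18.6, 17.2 and 16.2 CPM on day 1 and 109.8, 117, 100.3, 94.9 and 93.8 CPM on day 10. Its fall was largest on day 1 (-3.08 ± 0.10 (Q = 5.9e-27)) and a smaller one remained on day 10 (-0.49 ± 0.08 (Q = 7.1e-06)).

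TXNIP, an arrestin that restrains glucose uptake and is induced by glucose through MondoA, rose on every day. It was at 327, 376, 338, 385 and 387 CPM on day 0 and 2110.5, 2272, 2802, 2682 and 2502 CPM on day 6, a log2 fold change of 2.77 ± 0.09 (Q = 2.4e-25) without overlap. On day 10, when the median of the 34 had declined to 0.22, TXNIP was still at 1947, 1843, 2152, 2188 and 1992 CPM (2.48 ± 0.09 (Q = 6e-24)). SLC2A12, which encodes a further glucose carrier, GLUT12, was at 3.94, 1.904, 2.32, 2.205 and 0.77 CPM on day 0 and 9.19, 8.04, 8.68, 7.09 and 7.55 CPM on day 2, all above day 0, at 1.82 ± 0.27 (Q = 2.6e-07).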

How the data were processed

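RNA of RPMI-8226 cells was sequenced by the authors in 35 directional libraries. Reads were pseudo-aligned by the authors to the GENCODE comprehensive transcriptome (GRCh38.p12) with Kallisto 0.44.0, and transcript estimates were summed per symbol and biotype, with adjustment for gene length, in R 3.5.0. The deposited table holds these expected counts as whole numbers, without normalization. The authors' own tests used DESeq2 1.25.8. Pseudo-alignment divides reads among transcripts of a symbol by estimate, so that shares of biotypes carry its error.

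The protein-coding entries were used, and 1666 without a count were left out. edgeR 4.0.16 in R 4.3.3 (quasi-likelihood test, TMM factors, day as a factor, 35 libraries together) was fitted to 17999 entries with Benjamini–Hochberg adjustment. DESeq2 1.42.0 was an alternative. Retained-intron entries were fitted separately. Ratios took counts plus 0.5 and exact two-sided permutation tests over 252 assignments. Scripts were tested on simulated data. Totals of 6519392 to 10962890 counts per library set the precision, and libraries of the same day differed by more than sampling noise (chi-square per degree of freedom 2.47 to 9.21 within days). The members and gene lists were chosen with earlier results of these data known. Shown library by library were, in each role group, the 2 members (1 in groups of 2 or 3) with the largest absolute fold change on any day, plus SLC2A1, GAPDH, LDHA and PKM, and among other pathway genes the 2 that rose and the 2 that fell most on day 2 (Q of at most 0.05, average log2 CPM over 0, which SLC2A4 did not reach), with TXNIP. HK2, PFKL, PFKP, PFKFB2, ENO2, MPC1 and PDK1 were shown in addition, after their values were seen. Alternatives were other normalizations, a filter on low counts, fits of 2 days, a replicate block and leaving out each library.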

Additional observations from a re-analysis of the deposited data

Results flagged for a closer look

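An outlying library was sought on the log2 scale of CPM in 105 groups of 5 libraries (15 transcripts shown library by library on 7 days). In 4 groups the gap of a library to the nearest of the others exceeded the critical value of 0.71 of the group's range. By chance about 1 in 20 would. SLC2A1 in replicate 3 of day 0 was at 33.4 CPM, with the others between 50.8 and 58.9 CPM. TPI1 in replicate 1 of day 10 was at 364 CPM, with the others between 409 and 418 CPM. MPC2 in replicate 4 of day 4 was at 60.2 CPM, with the others between 64.9 and 66.8 CPM. DLD in replicate 3 of day 2 was at 133 CPM, with the others between 152 and 161 CPM.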

How the results depend on the processing

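Counts of the 34 transcripts called on each day kept within 1.5 times of the reported value with DESeq2, RLE size factors, library sizes without factors, the filter on low counts, fits of 2 days at a time and each library left out, with these exceptions. The number lower on day 6 was 1 without factors and 1 to 3 with a library left out, and the number lower on day 8 was 1 without replicates 3 and 4 of that day. The ratios at an adjusted p of at most 0.05 numbered 0 with the median in place of the mean and 21 to 26 with a library left out. With 5 libraries few distinct medians are possible, and each separated pair then had an exact permutation p of 0.0635 after adjustment. Retained-intron calls numbered 31 higher and 9 lower with their own TMM factors. Leaving out a library gave 24 to 25 higher on day 1, 26 to 27 on day 2, 24 to 25 on days 4 and 6, 24 to 26 on day 8 and 19 to 22 on day 10, 5 to 6, 4 to 4, 3 to 3, 2 to 3 and 3 to 4 lower on days 1, 2, 4, 8 and 10, 9 to 10 higher and 13 to 15 lower on day 2 against day 1, 4 to 5 higher and 19 to 23 lower on day 10 against day 2, and 12 to 16 higher and 15 to 22 lower retained-intron calls.

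Signs turned in differences that did not pass the threshold. SLC2A3 on day 4 was 0.091 without factors and -0.17 to 0.092 with a library left out. DLAT on day 8 was 0.045 without factors, 0.011 in the fit of 2 days, 0.044 without replicates 3 and 4 of day 8 and -0.047 to 0.064 with a single library left out, and on day 6 it was -0.028 to 0.090. DLD on day 6 was -0.0015 to 0.15 and PFKFB4 on day 10 was -0.00047 to 0.22 with a library left out. LDHB on day 1 was -0.0060 with RLE factors, -0.011 with the filter, -0.0058 with DESeq2 and -0.014 to 0.041 with a library left out. With a library left out, HK1 on day 2 was -0.46 to 0.078, ENO2 -0.053 to 0.18 on day 2 and -0.17 to 0.024 on day 4, MPC1 on day 8 -0.11 to 0.0098 and PFKFB2 on day 10 -0.013 to 0.076. The SLC2A3 to SLC2A1 ratio on day 10 shifted by 0.21 with the median and by -0.18 to 0.13 with a library left out, and PFKP to PFKL by -0.034 to 0.043. The cause was not tested. SLC2A1 on day 8 also passed without factors (0.42) and with DESeq2 (0.38), SLC2A3 on day 8 without factors (0.55) and with the filter (0.51), GAPDH on day 10 without factors (0.19), SLC2A1 on day 10 in the fit of 2 days (0.33), PDP1 on day 6 with the filter (-0.41) and without replicate 1 or 3 of day 0 (-0.52 and -0.48), PFKFB3 on day 1 with RLE factors, DESeq2 and the filter (-0.24 each) and in the fit of 2 days (-0.19), HK1 on day 1 in the fit of 2 days (1.17) and LDHB on day 1 without factors (0.14), while DLAT on day 10 was lost with RLE factors (0.22). Without factors, PFKFB2 on day 2 (-0.27), PFKFB3 on day 6 (-0.22), PDK1 on day 1 (-0.19) and SLC16A1 on day 4 (-0.10) were lost. HK2 on day 1 was lost without replicate 2 or 4 of day 0 or replicate 1 of day 1 (0.29, 0.26 and 0.28) and ENO2 on day 6 without replicate 4 or 5 of day 0 or replicate 2 or 3 of day 6 (0.23, 0.22, 0.26 and 0.21), and ENO2 on days 6 and 8 also in fits of 2 days (0.30 and 0.36). Without factors the median of filtered entries moved to 0.12, 0.13 and 0.11 on days 1, 2 and 4.

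No pairing of the libraries by replicate number was seen, which does not exclude that same-numbered libraries came from the same subculture. Of 105 same-numbered pairs of libraries on different days, 1 had deviations from the day means that correlated above 0.1 (range -0.12 to 0.14). Of 210 best matches, each among the 5 libraries of another day, 47 shared a number, where 1 in 5 would by chance. With the replicate number as a block the counts higher were 25, 26, 25, 25, 24 and 20 and those lower 5, 4, 3, 2, 3 and 3 on days 1, 2, 4, 6, 8 and 10, as without it, 9 and 15 for day 2 against day 1, 4 and 23 for day 10 against day 2, and 14 and 19 for retained introns. Counts of 0 to 21 per library, as for HK1, limit what could be detected there.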

Other observations

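A list of 18 known targets of the hypoxia-inducible factors, none of them among the 34, was read in the same comparisons. On day 1, 9 were higher and 6 lower, where 25.4% and 27.3% of all entries were, and on day 2, 8 and 5 (23.2% and 24.4%). On day 4, 15 were higher and 2 lower (19% and 20.1%), on day 6, 15 and 0 (17.5% and 17%), and on day 8, 15 and 2 (18.2% and 18.6%). By day 10, 10 were higher and 3 lower (16.1% and 15.8%). Their median log2 fold change was 0.24 on day 1 and 0.0046 on day 2, and had reached 0.64 by day 6. NDRG1, a stress and hypoxia-induced transcript, was at 733 to 851 CPM on day 0, 509 to 579.7 CPM on day 1 and 1522 to 2114 CPM on day 6, so that it was lower on day 1 (-0.56 ± 0.11 (Q = 3e-05)) and higher on day 6 (1.22 ± 0.11 (Q = 3.4e-12)). P4HA1, a collagen prolyl hydroxylase subunit, likewise went from -1.03 ± 0.08 (Q = 1.6e-14) on day 1 to 0.74 ± 0.07 (Q = 7.4e-11) on day 6. EGLN3, a hydroxylase that marks the factors for degradation, was higher on each recovery day (from 1.37 ± 0.19 (Q = 1.2e-07) on day 8 to 1.97 ± 0.18 (Q = 8.9e-12) on day 6), as was ADM, adrenomedullin (1.93 ± 0.16 (Q = 6.7e-14) on day 1 and 1.61 ± 0.16 (Q = 6.4e-11) on day 6). These 4 were chosen after their values had been seen.

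Of 6 transcripts for factors that act on glycolytic genes, 4 were higher and 1 lower on day 1. HIF1A was at 47.5 to 51.7 CPM on day 0 and 61.2 to 65.5 CPM on day 1 (0.37 ± 0.08 (Q = 8.8e-05)), and did not pass on any later day. MYC was at 868 to 1107 CPM on day 0 and 789 to 924 CPM on day 2 (-0.19 ± 0.06 (Q = 0.0078)), while its difference on day 10 was 0.21 ± 0.06 (Q = 0.0041). MLXIP, which encodes MondoA, was higher on each recovery day, from 0.16 ± 0.07 (Q = 0.041) on day 1 to 0.37 ± 0.07 (Q = 1.9e-05) on day 8. Transcript levels do not measure the amount or activity of these proteins.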
